A study of Sus scrofa with 6 samples.

Results

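The genes described here are the Notch effectors HES1 and HES5, the Notch ligands DLL1, DLL3 and JAG1, and the proneural factors NEUROG1 and NEUROG2, followed through 3 stages of pig midbrain-like organoids (pMLOs) profiled by single-cell RNA-seq. They were chosen by gene symbol. Of 8 genes named, 7 were matched among the 30477 genes of the count matrices, and the receptor gene NOTCH1 was not analysed here.

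All 6 libraries came from 1 pig embryonic stem cell line derived from an embryo made by in vitro fertilization, so the data describe a single line. Organoids were sampled on day 11 (D11), day 28 (D28) and day 45 (D45), with 2 libraries per day, A and B. Every organoid was induced in N2B27 medium with the TGF-beta and BMP pathway inhibitors SB431542 and Noggin, the sonic hedgehog protein SHH-C24II and the WNT pathway activator CHIR99021, followed by FGF8 and then by B27 medium with FGF8, BDNF and ascorbic acid. After the D11 stage the organoids were embedded in Matrigel and matured in medium with BDNF, GDNF, ascorbic acid, db-cAMP and DAPT. DAPT inhibits gamma-secretase, the enzyme that releases the active part of a Notch receptor, so the effects of day and of DAPT on the genes below cannot be told apart. The submitters call the cells midbrain dopaminergic neurons, but each library held a whole organoid suspension: the neuronal gene STMN2 was detected in 13.8% to 60.4% of cells once every cell was thinned at random to 2000 unique molecular identifiers (UMIs), so the libraries are called organoids below.

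Notch signalling passes between neighbouring cells. A ligand such as DLL1 or JAG1 on one cell binds a Notch receptor on the next, gamma-secretase cuts the receptor, and the freed intracellular domain joins the DNA-binding protein RBPJ to switch on repressors of the HES and HEY families. In the developing nervous system HES1 and HES5 hold cells as progenitors by repressing proneural genes such as NEUROG1 and NEUROG2, which in turn switch on Delta ligands in cells about to become neurons. DLL3 is a divergent ligand that is mostly kept inside the cell that makes it. This circuit, called lateral inhibition, is also used when oligodendrocyte precursors are set aside.

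The 7 genes lie apart in the pig genome (Sscrofa11.1, RefSeq): HES1 at chr13:131135970-131137865, HES5 at chr6:64409110-64410541, DLL1 at chr1:198815-211346, DLL3 at chr6:48135738-48155373, JAG1 at chr17:19591248-19629659, NEUROG1 at chr2:137763091-137766787 and NEUROG2 at chr8:110200681-110206081. The 250 bases before the annotated start of each gene were searched on both strands for TGGGAA, the core letters that RBPJ is known to bind. The windows of HES5 and DLL1 each held 2 matches, those of DLL3 and of the related target HEY1 held 1, and those of HES1, JAG1, NEUROG1 and NEUROG2 held none. Among the windows of 19556 annotated genes, 24.565% held at least 1 match and 3.308% at least 2. A match is a description of these letters and says nothing of binding. The annotated starts were not checked against true start sites. The HES1 window ends in a run of A, so the lack of a match there says nothing of the HES1 promoter. The windows with 2 matches, 1 from a target and 1 from a ligand, are printed in the direction of the gene, with TGGGAA or its reverse complement TTCCCA in capitals. The HES5 window lies at chr6:64410542-64410791 on the minus strand, with matches 237 to 232 and 93 to 88 bases before the start. The DLL1 window lies at chr1:198565-198814 on the plus strand, with matches 161 to 156 and 108 to 103 bases before the start.
HES5: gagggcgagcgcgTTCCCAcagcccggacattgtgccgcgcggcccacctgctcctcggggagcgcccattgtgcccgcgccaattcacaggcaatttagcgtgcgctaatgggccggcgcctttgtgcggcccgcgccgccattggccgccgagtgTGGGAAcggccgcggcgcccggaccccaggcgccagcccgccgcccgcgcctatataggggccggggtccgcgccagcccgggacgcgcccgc
DLL1: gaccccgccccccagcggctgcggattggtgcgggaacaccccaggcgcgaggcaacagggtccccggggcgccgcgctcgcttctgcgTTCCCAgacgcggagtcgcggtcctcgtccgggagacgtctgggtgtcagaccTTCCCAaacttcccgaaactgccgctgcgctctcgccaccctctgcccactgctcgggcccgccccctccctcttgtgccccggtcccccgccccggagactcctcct

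After removal of cells with fewer than 200 or more than 7000 genes or with over 10% mitochondrial UMIs, 13870 to 21553 cells per library were kept, with a median of 2300.5 to 10757 UMIs per cell. The 2 lowest medians were both of D45, so shares of cells are given at 2000 UMIs per cell, in the 9225 to 14666 cells per library that reached that depth. Levels are in CPM, the UMIs of a gene per 1000000 UMIs of all genes summed over the cells of a library. The kit counts 1 end of each molecule, so a level does not scale with gene length. Fibroblast-marker RNA differed with day and between libraries of a day: a list of 4 such markers summed to 9.83 and 14.4 CPM in A and B of D11, 916 and 109 CPM in those of D28, and 423 and 1301 CPM in those of D45. Its part in the changes with day below was not tested. Any 2 libraries shared 55 to 119 cell barcodes, at most 0.650% of the smaller one. Fewer expressing cells and less RNA per cell cannot be told apart in a library sum.

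The 2 effectors fell on different days. HES1 stood at 111 and 159 CPM in the D11 libraries A and B, at 139 and 91.2 CPM in those of D28, and at 34.1 and 38.5 CPM in those of D45. The D11 and D28 ranges overlapped, while both D45 libraries lay below the other 4. HES5 stood at 44.4 and 37.5 CPM on D11, 6.26 and 14.4 CPM on D28, and 13.5 and 12.4 CPM on D45. Here the break lay between D11 and the later days, and the D45 libraries lay between the 2 of D28. Against D11, HES5 fell by 2.29 ± 0.31 on the log2 scale at D28 (SE, adjusted p = 0.00376) and by 2.07 ± 0.31 at D45 (adjusted p = 0.00314, quasi-likelihood test of edgeR, adjusted by Benjamini-Hochberg over the 22192 genes tested, 2 libraries per day). HES1 fell by 2.31 ± 0.33 at D45 against D11 (adjusted p = 0.00279), but its D28 value of -0.47 did not pass (adjusted p = 0.327). Between D28 and D45 HES1 fell by 1.84 ± 0.33 (adjusted p = 0.0237), a call that was lost without D45 A (adjusted p = 0.198) or without D45 B (adjusted p = 0.14). The ratio of HES1 to HES5 UMIs was 2.50 in D11 A and 4.25 in D11 B, 22.2 and 6.32 in the libraries of D28, and 2.52 and 3.10 in those of D45, so D28 had the highest ratios and D45 had returned to the D11 range. The D28 libraries lay far apart, and calls depended on which of them was used. Without D28 A the HES1 value at D28 was -0.95 (adjusted p = 0.0193), and without D28 B HES5 was 0.78 higher on D45 than on D28 (adjusted p = 0.00643).

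Among the ligands, JAG1 followed HES5. It stood at 51.9 and 45.9 CPM on D11, 10.7 and 16.7 CPM on D28, and 13.1 and 14.9 CPM on D45. It fell by 2.12 ± 0.21 at D28 (adjusted p = 0.00129) and by 2.21 ± 0.21 at D45 (adjusted p = 0.000583) against D11, with no overlap between D11 and the later libraries. The 2 Delta ligands parted. DLL3 stood at 15.2 and 8.87 CPM on D11, 7.65 and 5.14 CPM on D28, and 1.57 and 2.11 CPM on D45. DLL1 stood at 12.1 and 8.09 CPM on D11, 4.87 and 11.4 CPM on D28, and 20.1 and 21.0 CPM on D45. Both D45 libraries were thus the lowest of all for DLL3 and the highest of all for DLL1. DLL3 fell by 3.11 ± 0.41 from D11 to D45 (adjusted p = 0.00184) and by 1.96 ± 0.39 from D28 to D45 (adjusted p = 0.0298). The second call was lost without either D45 library (adjusted p = 0.221 without A and 0.138 without B) and without either D11 library (0.0605 and 0.0567), which the fit uses for the spread. DLL1 did not pass in any pair of days, at 0.62 for D45 against D11 (adjusted p = 0.204) and 1.23 for D45 against D28 (adjusted p = 0.069), though DESeq2 called the latter (1.26, adjusted p = 0.00715). With 1 D28 library left out it did pass: D45 against D11 was 0.68 without D28 A (adjusted p = 0.013) and 0.62 without D28 B (adjusted p = 0.0219), and D45 against D28 was 0.86 (adjusted p = 0.0348) and 1.81 (adjusted p = 0.000939). At D28 against D11 DLL3 passed with DESeq2 (-1.14, adjusted p = 0.0191) and without D28 A (-1.59, adjusted p = 0.00759) and DLL1 without D28 B (-1.19, adjusted p = 0.00432). Read as a share of all DLL1 and DLL3 UMIs, DLL1 made up 44.3% and 47.7% on D11, 38.9% in D28 A, 69.0% in D28 B, and 92.8% and 90.9% on D45. The widest 95% Wilson interval of these shares, that of D28 A, ran from 36.3% to 41.5% and covers counting error only.

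NEUROG1 and NEUROG2 were close to the limit of detection. Their UMIs per library, from D11 A to D45 B, were 19, 24, 3, 7, 4 and 1 for NEUROG1 and 21, 18, 10, 44, 11 and 14 for NEUROG2. The summed level of NEUROG1 was 6.24 times as high on D11 as on D45 (95% counting interval 2.48 to 20.2). That interval covers the counting error of pooled UMIs only, not the spread between libraries, and is not read as a test. It passed the filter on low counts only through its D11 libraries, so its test is not read. NEUROG2 was highest in D28 B and passed in no pair of days with all libraries. Without D28 A NEUROG2 passed between D28 and D45 (-1.75, adjusted p = 0.026). No more than 0.11% of thinned cells held a UMI of either gene in any library.

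**Figure D1:**
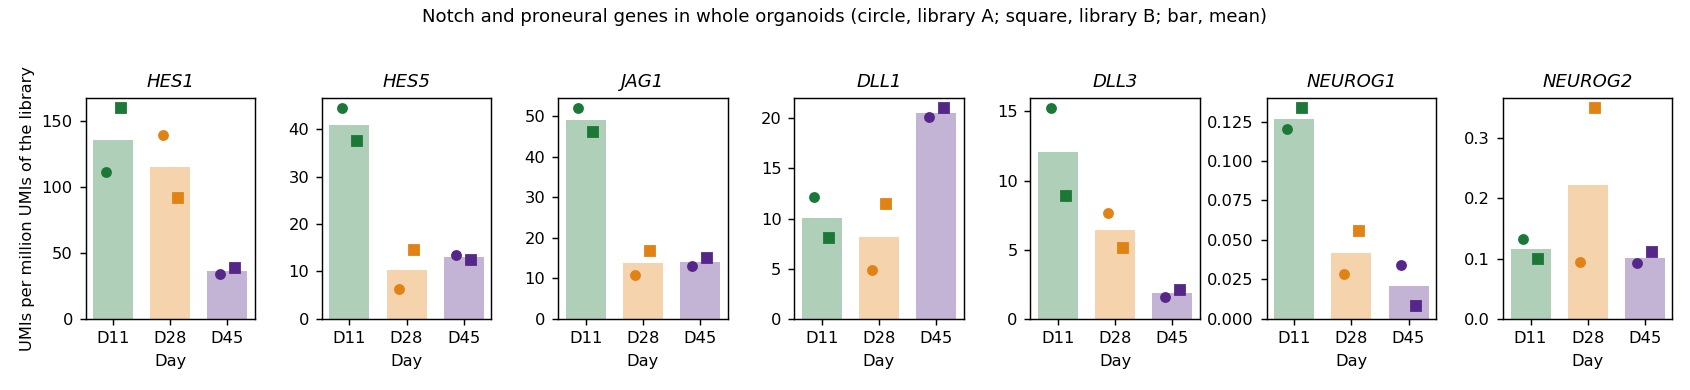
Levels of the 7 genes in whole organoids, in CPM of the library on axes that start at 0, against the day of sampling; circles are library A, squares library B and bars the mean of both. HES5 and JAG1 are low from D28 on, HES1 and DLL3 are lowest on D45, and both D45 libraries lie above the others for DLL1 (20.1 and 21.0 CPM).

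Of the 6 genes other than NEUROG1, 2 passed at D28 and 4 at D45 against D11, and 2 passed between D28 and D45. Over all genes tested, 23.1%, 34.6% and 9.40% passed in the same comparisons. Members of the pathway around them moved as follows. Of 6 Notch target genes measured, HES1 and HES5 included, 4 fell and none rose at D28, and 5 fell and 1 rose at D45, with a median log2 fold change of -1.56 and -2.18 against 0.034 and -0.012 over all genes. HEYL fell by 2.98 ± 0.32 and HEY1 by 2.10 ± 0.21 at D28 (adjusted p = 0.00162 and 0.00143). HEY1 stood at 79.6 and 85.8 CPM on D11 and between 18.6 and 28.5 CPM in the 4 later libraries. HEY2 was the exception among the targets and rose by 1.77 ± 0.24 at D45 (adjusted p = 0.00221). Of 3 receptor genes, none passed at D28 and NOTCH3 fell by 0.94 ± 0.19 at D45 (adjusted p = 0.00952). NOTCH2 ranged from 48.1 to 74.3 CPM over the 6 libraries with no order by day.

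Among other genes of the pathway calls went in both directions, and their counts are to be read against the 23.1% of all genes that passed at D28 and the 34.6% at D45. The modifiers and the nuclear complex lay below these shares at both days. Of 8 genes for gamma-secretase and the receptor sheddases, 1 rose and 1 fell at D28, and 2 rose and 2 fell at D45, among them the gamma-secretase subunit APH1B, up 2.18 ± 0.24 at D45 (adjusted p = 0.00101), and the sheddase ADAM10, down at both days (-0.76 and -0.77). Of 12 modifiers of ligand and receptor, 1 fell at D28, the glycosyltransferase LFNG at -0.96 (adjusted p = 0.0497), and 2 rose and 1 fell at D45, led by the ubiquitin ligase NEURL1 at 0.98 and the endocytic adaptor NUMB at -0.56. Of 9 genes of the nuclear complex, the coactivator MAML3 fell at both days (-1.55 and -1.41), joined at D45 by SNW1 (-1.07). Among 6 ligands, the atypical ligand DNER rose by 1.40 ± 0.18 at D28 and 2.55 ± 0.19 at D45, and DLL4 fell by 1.40 ± 0.39 at D28. No count is given for the 13 proneural and related neuronal factors, since NEUROG1, whose test is not read, is among them. NEUROD4 fell by 2.35 ± 0.52 and 4.86 ± 0.59. NEUROD6, a factor of differentiating neurons, was higher by 5.46 and 8.72. These values are a description, since NEUROD6 may have passed the filter through the later days alone. Of 5 proneural inhibitors, 3 rose at D28 and 4 at D45 and none fell, with ID1, whose protein binds and disables proneural partners, at 2.77 ± 0.64 (adjusted p = 0.0232) and 2.68 ± 0.64 (adjusted p = 0.0173).

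The genes were then followed in cells with and without a UMI of 4 markers: STMN2 for neurons, TOP2A for dividing cells, CORIN for floor plate progenitors and AQP4 for astrocytes. Both sums of a library entered 1 fit with the library as a block, so a difference is one between cells of the same library. STMN2 RNA was also found outside neurons: at 2000 UMIs per cell, 11.9% to 16.6% of cells with at least 2 COL1A1 UMIs, a fibroblast collagen, held an STMN2 UMI on D28 and D45, against 48.1% to 60.4% of all cells. CORIN did not mark floor plate progenitors alone: in CORIN-positive cells COL1A1 stood at 0.527 to 0.715 CPM on D11, 20.6 to 61.1 CPM on D28 and 382 to 881 CPM on D45. For STMN2 a stricter split, at least 4 of 2000 UMIs against none, is therefore given beside it, and was chosen after the data were seen.

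HES1 was lower in STMN2-positive cells of every library. It stood at 75.3, 124, 121, 74.3, 29.1 and 33.2 CPM in STMN2-positive cells, from D11 A to D45 B, and at 126, 179, 203, 134, 52.4 and 54.1 CPM in STMN2-negative cells. The mean difference over days was -0.82 ± 0.04 (adjusted p = 2.56e-07), HES5 followed at -0.52 ± 0.08 (adjusted p = 0.00037) and JAG1 at -0.49 ± 0.05 (adjusted p = 2.14e-05). Over all genes tested 48.7% passed in this comparison, so the size says more than the call. STMN2-negative cells held more COL1A1, at day means of 232 and 538 CPM on D28 and D45 against 89.2 and 317 CPM. The part of this in the differences was not tested. Under the stricter split the differences were -3.67 for HES1, -2.45 for HES5 and -1.66 for JAG1. In those terms 2.3%, 2.4%, 2.0%, 1.4%, 0.9% and 0.9% of strictly STMN2-positive cells held HES1 against 20.2%, 28.4%, 29.6%, 19.7%, 7.6% and 8.0% of cells with no STMN2. The Delta ligands gave smaller values. DLL1 was at -0.21 ± 0.06 (adjusted p = 0.0203) and at -0.93 under the stricter split (adjusted p = 0.0043). The call was lost without D11 A, D28 B or D45 B (adjusted p = 0.144, 0.166 and 0.11) and with at least 2 UMIs of STMN2 (adjusted p = 0.086). DLL3 was at 0.24 ± 0.07 (adjusted p = 0.0141), a call lost without D11 A, D11 B or D45 A (adjusted p = 0.0673, 0.0526 and 0.0517), and its direction turned to -0.24 under the stricter split (adjusted p = 0.291) and to -0.09 in thinned cells (adjusted p = 0.628). All 6 targets and all 5 proneural inhibitors tested were lower in STMN2-positive cells. No count of the proneural list is given here, since factors of neurons may have passed the filter through the STMN2-positive sums alone.

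The DLL3 difference by STMN2 changed with day. On D11 DLL3 stood at 20.4 and 11.4 CPM in STMN2-positive cells against 13.1 and 7.44 CPM in negative cells, and on D28 at 7.29 and 5.07 against 8.95 and 5.30 CPM. The D28 difference was 0.82 lower than that of D11 on the log2 scale (-0.82 ± 0.13, adjusted p = 0.00465), where 10.7% of all genes passed. That of DLL1 was 0.54 lower at D45 than at D11 (-0.54 ± 0.15, adjusted p = 0.039), where 15.7% passed. The first was lost without D11 A or D11 B (adjusted p = 0.0801 and 0.0571), in thinned cells (-0.80, adjusted p = 0.102) and under the stricter split (-0.14, adjusted p = 0.855). The second was -2.23 under the stricter split (adjusted p = 0.0178) and was lost without any one of the D11 and D45 libraries (0.0675 to 0.303).

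In dividing cells HES5 was the member with the largest excess. HES5 stood at 51.5, 46.2, 8.96, 37.5, 27.2 and 22.0 CPM in TOP2A-positive cells against 39.4, 31.4, 5.91, 11.2, 11.6 and 10.9 CPM in TOP2A-negative cells, higher in 6 of 6 libraries. The mean difference was 1.05 ± 0.12 (adjusted p = 0.000218), with JAG1 at 0.44 ± 0.06 (adjusted p = 0.000712) and HES1 at 0.22 ± 0.04 (adjusted p = 0.00169). Here 42.9% of all genes passed. All 6 targets were higher, with HEY2 at 1.16 and HES4 at 1.10. HES1 itself was lower in TOP2A-positive cells of both D11 libraries (99.3 against 119 and 148 against 167 CPM) and higher in the other 4, and its call over days was lost without D11 B (adjusted p = 0.0512) and in thinned cells (adjusted p = 0.347). The difference of HES1 at D28 exceeded that at D11 by 0.63 ± 0.09 (adjusted p = 0.00796), a comparison in which 6.19% of genes passed. At D45 it exceeded D11 by 0.64 ± 0.09 (adjusted p = 0.00564), with 11.1% passing.

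DLL1 was lower in TOP2A-positive than in TOP2A-negative cells of both D11 libraries, and higher in both D45 libraries. On D11 it stood at 8.37 and 6.40 CPM in TOP2A-positive against 14.7 and 9.25 CPM in negative cells, and on D45 at 34.2 and 28.2 against 18.1 and 19.8 CPM. The D45 difference was 0.85 (adjusted p = 0.025), the D11 difference -0.66 (adjusted p = 0.0632), and the change between them 1.50 ± 0.31 (adjusted p = 0.0229). TOP2A-positive cells were not shown to be of 1 kind on D11 and D45. Their day means were 0.859 and 199 CPM for OLIG1, against 0.974 and 56.7 CPM in TOP2A-negative cells. For COL1A1 they were 1.87 and 328 CPM, against 1.64 and 376 CPM. The part of this in the changes with day was not tested. All 3 changes with day by TOP2A, that of DLL1 and those of HES1 at D28 and D45, were lost when either D11 library was left out, and those at D45 also without either D45 library, with adjusted p from 0.0545 to 0.21. That of HES1 at D45 was 0.29 in thinned cells (adjusted p = 0.653). DLL3 did not pass by TOP2A (-0.11, adjusted p = 0.787), being lower in TOP2A-positive cells of 4 libraries and higher in D28 B and D45 A, but passed without D28 B (-0.61, adjusted p = 0.00654). DLL1 over days, at 0.29 (adjusted p = 0.124), passed without D28 A (0.40, adjusted p = 0.000911).

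CORIN-positive cells held more HES1 and less of both Delta ligands. HES1 stood at 151, 193, 206, 146, 68.8 and 66.9 CPM in CORIN-positive cells against 81.9, 126, 99.1, 56.2, 31.8 and 35.4 CPM in CORIN-negative cells, a mean difference of 1.13 ± 0.06 (adjusted p = 3.63e-06). DLL1 stood at 3.07, 2.84, 2.65, 3.77, 8.01 and 8.40 CPM against 18.8, 13.2, 6.20, 16.3, 20.9 and 22.4 CPM, a mean difference of -1.70 ± 0.12 (adjusted p = 1.1e-05). DLL3 was at -1.56 ± 0.12 (adjusted p = 2.06e-05). All 3 held their direction in 6 of 6 libraries, while 46.2% of all genes passed. HES5 did not follow HES1, at -0.47 (adjusted p = 0.161), and was lower in CORIN-positive cells of 5 libraries and higher in D28 A. Without D28 A it was -0.85 (adjusted p = 0.000206). JAG1 was at -0.02 over days (adjusted p = 0.817) but at -0.50 on D11 (adjusted p = 0.0118). Around them, HEYL was at 1.66, NOTCH2 at 1.10 and NOTCH3 at 1.00, and HEY2 was lower at -1.27. No count of the proneural list is given here, since NEUROG1 and NEUROG2 held most of their UMIs in CORIN-negative cells. The JAG1 difference was 0.62 ± 0.16 higher at D28 than at D11 (adjusted p = 0.0409, 13.9% of genes passing) and 0.83 ± 0.17 higher at D45 (adjusted p = 0.0229, 8.92% passing). That of HES1 was 0.60 ± 0.15 higher at D28 (adjusted p = 0.034). All 3 changes were lost without D11 A or D11 B, those at D28 also without D28 B, and that at D45 also without either D45 library (adjusted p 0.0606 to 0.263), and the last was 0.13 in thinned cells (adjusted p = 0.945). With at least 2 CORIN UMIs both changes at D28 were lost (adjusted p = 0.0575 for HES1 and 0.0636 for JAG1), and that of JAG1 also in thinned cells (0.153).

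AQP4 was detected in 6 and 2 cells on D11, so AQP4-positive cells were compared in the 4 later libraries. HES1 stood at 223, 194, 54.6 and 46.4 CPM in AQP4-positive cells from D28 A to D45 B, against 137, 90.2, 30.1 and 36.4 CPM in AQP4-negative cells, and DLL1 at 3.20, 0.887, 12.3 and 11.6 against 4.90, 11.5, 21.6 and 23.4 CPM. HES1 was higher by 0.85 ± 0.09 (adjusted p = 3.67e-06) and DLL1 lower at -1.13 (adjusted p = 0.00217), DLL3 lower at -1.54 (adjusted p = 0.00116), while HES5 at 0.29 (adjusted p = 0.284) and JAG1 at 0.40 (adjusted p = 0.066) did not pass. Without D28 B HES5 passed (0.59, adjusted p = 0.0365), and JAG1 did without D28 A (0.61, adjusted p = 0.0326), with no filter on low counts (0.36, adjusted p = 0.0416) and with all barcodes (0.39, adjusted p = 0.0426). The 2 D28 sums rest on 127 and 63 cells with 7 and 1 UMIs of DLL1. AQP4-positive cells were not shown to be of 1 kind on D28 and D45. Their day means were 257 and 60.8 CPM for TOP2A, 98.8 and 15.6 CPM for CORIN and 111 and 412 CPM for AQP4 itself. Over all genes 31.3% passed, and in thinned cells none of the members did. HEY1 was at 2.09 and HES4 at 1.86, and all 5 proneural inhibitors were higher, with ID1 at 2.56.

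**Figure D2:**
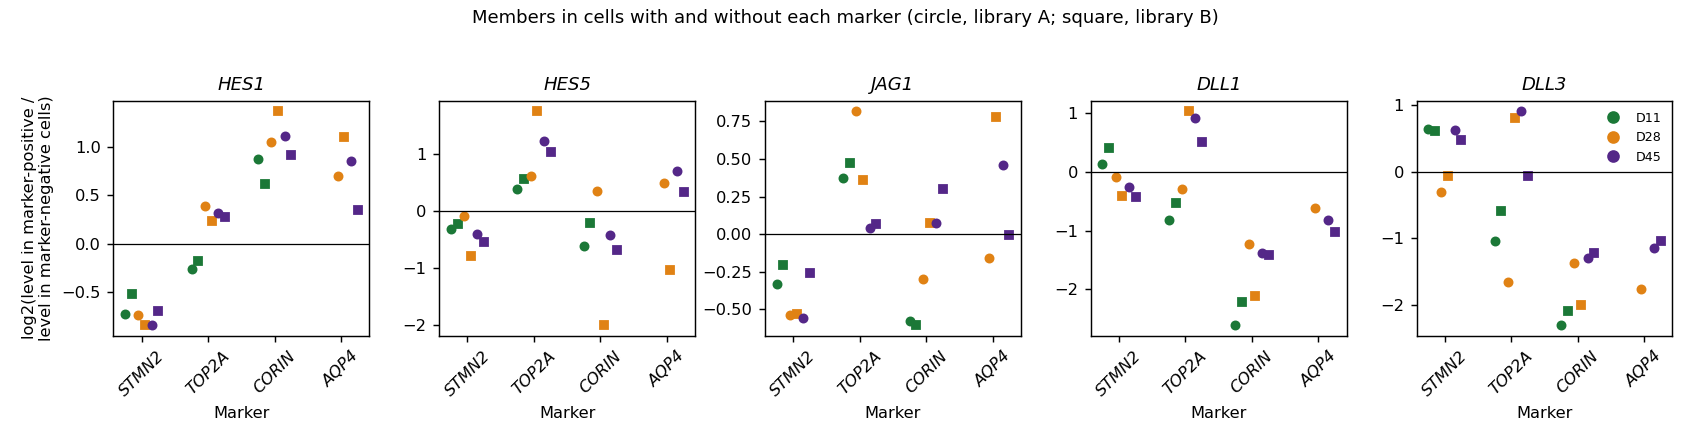
The log2 ratio of each gene's level in marker-positive over marker-negative cells of the same library, for 4 markers, with circles for library A and squares for library B; a point is drawn where both sums hold at least 3 UMIs. HES1 lies below 0 for STMN2 and above 0 for CORIN in every library, DLL1 and DLL3 lie below 0 for CORIN in every library, and DLL1 passes from below to above 0 for TOP2A between D11 and D45.

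Cells with a UMI of DLL1 or DLL3 and none of HES5 are called Delta-bearing cells (617 to 1486 per library). They were compared with cells with HES5 and neither Delta ligand (HES5-bearing cells, 295 to 2214 per library). Mean UMIs per cell were close, 11176 to 12410 and 11323 to 12986. Cells with HES5 and a Delta ligand were in neither class: of 2655 D11 A cells with HES5, 2214 were HES5-bearing. The classes were not shown to be sending and receiving cells, since DLL3 is mostly kept inside its cell. In whole libraries DLL1 made up 44.3% and 47.7% of DLL1 and DLL3 UMIs on D11. It made up 38.9% and 69.0% on D28, and 92.8% and 90.9% on D45. HES5, DLL1 and DLL3 chose the cells and are not read here. HES1 stood at 64.1, 108, 100, 45.1, 25.4 and 22.6 CPM in Delta-bearing cells against 88.2, 130, 178, 126, 70.9 and 68.5 CPM in HES5-bearing cells, lower in 6 of 6 libraries. Its day means in HES5-bearing cells were 109, 152 and 69.7 CPM, against 135, 115 and 36.3 CPM in whole organoids. HES5-bearing cells thus lay below whole organoids on D11 and above them on D28 and D45. Delta-bearing cells, at day means of 85.9, 72.6 and 24.0 CPM, lay below on all days. The mean difference between the classes was -1.02 ± 0.08 (adjusted p = 8.05e-05), in a comparison in which 31.8% of all 16580 genes tested passed. It widened with day, from -0.36 on D11 (adjusted p = 0.0781, 25.6% passing) through -1.16 on D28 (adjusted p = 0.00384, 6.27% passing) to -1.53 ± 0.15 on D45 (adjusted p = 0.000387, 24.3% passing). The change from D11 to D45 was -1.17 ± 0.20 (adjusted p = 0.00484, 22.0% passing), and was lost without D11 B (-1.04, adjusted p = 0.0669). The D11 value itself passed with no filter on low counts (-0.45, adjusted p = 0.00651), with at least 2 UMIs (-0.81, adjusted p = 0.00208), in thinned cells (-0.77, adjusted p = 0.00435) and without either D28 library (adjusted p = 0.000794 and 0.00221).

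JAG1 was lower in Delta-bearing than in HES5-bearing cells. It stood at 53.0, 44.5, 9.14, 14.8, 14.2 and 12.3 CPM in Delta-bearing cells and at 81.8, 82.5, 8.98, 36.3, 20.6 and 20.9 CPM in HES5-bearing cells, lower in the first in all libraries but D28 A. Its day means in Delta-bearing cells, 48.8, 12.0 and 13.2 CPM, lay beside 48.9, 13.7 and 14.0 CPM in whole organoids. The mean difference was -0.79 ± 0.12 (adjusted p = 0.00163), and -0.45 without D28 B (adjusted p = 0.0245). On D11 alone it was -0.75 (adjusted p = 0.00885), lost without D11 A or D11 B (adjusted p = 0.0911 and 0.206). On D28 it was -0.96 (adjusted p = 0.0586), and passed with no filter on low counts (-0.92, adjusted p = 0.00714), with at least 2 UMIs (-0.85, adjusted p = 0.032) and without D28 A (-1.32, adjusted p = 0.00104), but was 0.06 without D28 B (adjusted p = 0.97). On D45 it was -0.64 (adjusted p = 0.0563), and passed with no filter (adjusted p = 0.0113), with at least 2 UMIs (0.0354) and without D28 A or D28 B (0.00278 and 0.00377).

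NEUROG1 gave 17 and 16 UMIs in the Delta-bearing cells of D11 A and B against 1 and 0 in the HES5-bearing cells, a ratio of levels of 73.6 (95% counting interval 12.3 to 2994). NEUROG2 gave 10 and 9 UMIs against 1 and 0, a ratio of 42.4 (6.74 to 1761). These intervals come from UMIs pooled over both libraries. They cover counting error only, not the spread between libraries, and are not read as a test. Thus 33 of the 43 NEUROG1 UMIs of D11 came from 1004 and 1006 Delta-bearing cells of the 2 libraries. Both genes entered this comparison through the sums where they were high, so no test of them is given. Their downstream factors were better measured: NEUROD4 stood at 79.9 and 70.2 CPM in Delta-bearing against 1.15 and 1.08 CPM in HES5-bearing cells on D11, a difference of 6.07 ± 0.21 (adjusted p = 2.71e-06), and NEUROD1 at 20.3 and 16.7 against 0.870 and 0.539 CPM.

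Among the other pathway genes, over days, all 5 targets other than HES5 were lower in Delta-bearing cells, HES1 included, with a median of -2.07 against 0.014 over all genes. HES4 was at -2.82, HEY2 at -2.26, HEY1 at -2.07 and HEYL at -1.68. All 5 proneural inhibitors were lower as well, led by ID3 (-1.47) and ID4 (-1.21), and of the proneural factors NEUROD4 (4.26) and NEUROD1 (2.96) were higher. No count of the proneural list is given, since members such as NEUROG1 and NEUROG2 entered through the Delta-bearing sums. NEUROD1 may have entered in the same way, so its value is a description. Of 3 receptors, NOTCH3 (-1.23) and NOTCH2 (-0.75) were lower. Of the ligands that did not choose the cells, DNER (0.51) was higher and JAG1 lower. DLL4 stood at 0.580 to 3.93 CPM in Delta-bearing and at 0 to 0.657 CPM in HES5-bearing cells, ranges that overlap. The Fringe glycosyltransferases, which tune the receptor to its ligands, went opposite ways, with MFNG at 1.97 and LFNG at -1.26. Of 8 secretase and sheddase genes, only APH1A passed, at -0.19. These counts are to be read against the 31.8% of all genes that passed in this comparison.

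**Figure D3:**
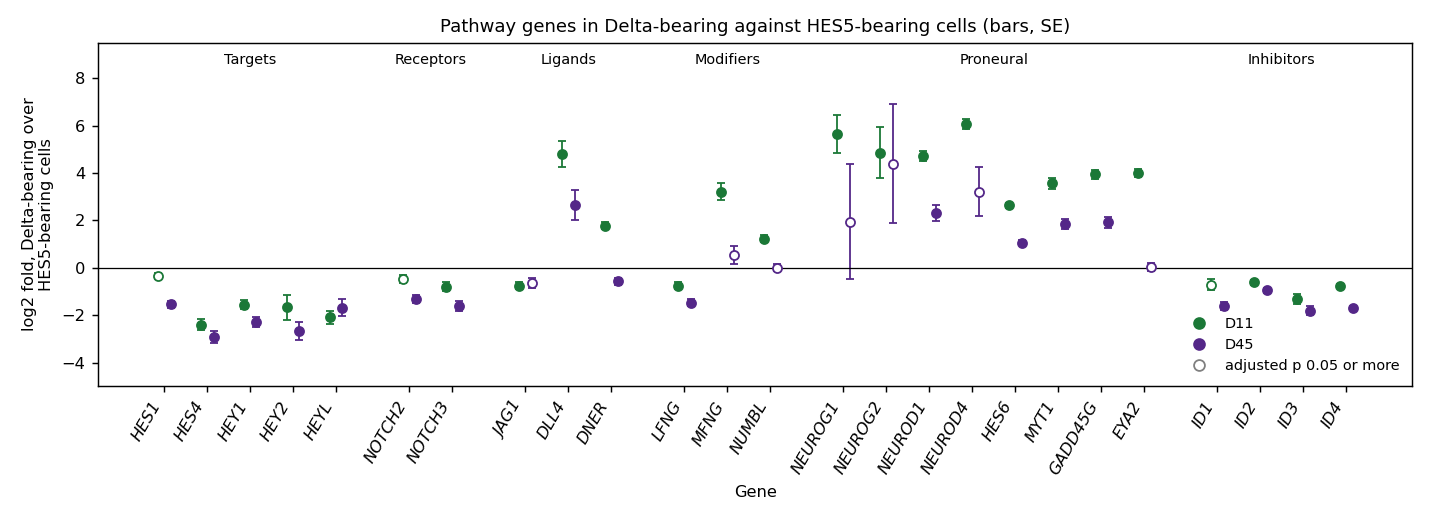
The log2 fold of pathway genes in Delta-bearing over HES5-bearing cells on D11 (green) and D45 (purple), grouped by role, with bars for the standard error and open circles for an adjusted p of 0.05 or more. Targets, receptors and inhibitors lie below 0 on both days, and DNER changes side between D11 and D45. No test of proneural factors is read from this figure, since some entered through the Delta-bearing sums.

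What else the Delta-bearing cells expressed changed with day. On D11 the neuronal markers summed to 3058 to 3567 CPM in Delta-bearing against 535 to 607 CPM in HES5-bearing cells, and on D45 to 1458 to 1497 against 1063 to 1113 CPM. The markers of the oligodendrocyte lineage moved the other way: 8.53 to 12.7 CPM against 3.10 to 3.12 CPM on D11, and 988 to 1158 against 163 to 317 CPM on D45. SOX10, a transcription factor of that lineage, stood at 2.09, 1.99, 3.63, 42.5, 151 and 138 CPM in Delta-bearing and at 1.81, 2.00, 2.10, 4.89, 27.9 and 19.6 CPM in HES5-bearing cells. On D45 its difference was 2.63 ± 0.17 (adjusted p = 8.69e-05), with OLIG1 at 2.37, AQP4 at -1.67 and TOP2A at 0.63 (adjusted p = 0.0104). On D11 TOP2A was lower in Delta-bearing cells (-0.77, adjusted p = 0.0025), CORIN was at -1.51 and STMN2 at 2.90. DNER was at 1.78 on D11 and -0.57 on D45. Astrocyte markers on D45 summed to 328 to 338 CPM in Delta-bearing and 1062 to 1065 CPM in HES5-bearing cells.

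Shares of cells were taken at 2000 UMIs, where 169 to 439 Delta-bearing and 94 to 834 HES5-bearing cells per library remained. STMN2 was found in 19.95%, 29.2%, 66.3%, 49.4%, 39.2% and 38.7% of Delta-bearing cells against 6.8%, 9.0%, 54.3%, 32.6%, 41.4% and 27.6% of HES5-bearing cells. TOP2A was found in 10.3%, 10.8%, 4.1%, 8.1%, 4.0% and 6.4% against 22.3%, 22.2%, 8.5%, 12.5%, 7.9% and 7.7%. TOP2A was thus rarer in Delta-bearing cells of 6 of 6 libraries and STMN2 commoner in 5, all but D45 A. On D45 the share of cells with TOP2A ran opposite to its summed level, which was higher in Delta-bearing cells, so no order is read from that day. Over libraries the differences were -6.22 points for TOP2A (two-sided exact sign-flip permutation test, p = 0.03125, the smallest that 6 libraries allow, adjusted p = 0.125 over 4 markers) and 11.9 points for STMN2 (exact p = 0.0625, adjusted p = 0.125). CORIN was found in 5.2% and 9.5% of Delta-bearing against 15.3% and 22.9% of HES5-bearing cells on D11, with a mean difference over days of -5.22 points (exact permutation p = 0.125, adjusted p = 0.167). AQP4 was found in neither kind of cell before D45, and then in 3.0% and 5.5% against 6.8% and 7.7%, which left 2 libraries with a difference, too few for the test to pass. None of STMN2, TOP2A and CORIN passed after adjustment. Among all cells STMN2 was found in 13.8%, 16.8%, 60.4%, 54.2%, 55.2% and 48.1%, from D11 A to D45 B. TOP2A was found in 19.6%, 19.1%, 3.4%, 4.2%, 3.7% and 4.2% of them. The order of Delta-bearing cells against all cells thus differed between days for both markers. NEUROD4 marked 16.2% of Delta-bearing cells in both D11 libraries and 0.3% and 0.2% on D45, while SOX10 marked 0.2% and 0.6% on D11 and 19.1% and 18.9% on D45. Shares among all cells went the same way, NEUROD4 from 1.50% and 1.21% to 0.11% and 0.045% and SOX10 from 0.30% and 0.37% to 8.47% and 7.98%, so this difference between days was not seen in Delta-bearing cells alone.

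The shares were also taken for each Delta ligand. Among DLL1-bearing cells NEUROD4 was found in 13.2% and 9.95% on D11 and in 0.26% and 0% on D45, while SOX10 was found in 0.33%, 0.50%, 2.11%, 8.13%, 19.7% and 20.4% from D11 A to D45 B. Among DLL3-bearing cells NEUROD4 was found in 18.4%, 21.3%, 5.56%, 5.45%, 0% and 1.72%, and SOX10 in 0% and 0.57% on D11 and 8.57% and 8.62% on D45. On D45 the SOX10 share of DLL3-bearing cells thus lay near that of all cells, 8.47% and 7.98%, and that of DLL1-bearing cells above it. OLIG1, also of the oligodendrocyte lineage, differed from SOX10 in this: on D45 it was found in 20% and 20.7% of DLL3-bearing and 27.4% and 32.0% of DLL1-bearing cells, against 5.71% and 5.92% of all cells. The D45 shares of DLL3-bearing cells rest on 35 and 58 cells, where the 95% Wilson interval of the 0% runs up to 9.89%, and the ligands were not tested against each other. SOX10 was then used as 1 more marker, a choice made after these shares were seen, so the DLL1 values by SOX10 are a description. On D45 DLL1 stood at 45.5 and 53.0 CPM in SOX10-positive against 13.6 and 13.4 CPM in SOX10-negative cells, a log2 difference of 2.06. Over all genes 43.8% passed by SOX10 on D45. DLL3 (0.29, adjusted p = 0.277) and HES5 (0.06, adjusted p = 0.804) did not pass, and HES1 (-0.52) and JAG1 (-0.68) were lower in SOX10-positive cells. SOX10-positive cells were not shown to be of 1 kind on D11 and D45, with OLIG1 day means of 1.19 and 306 CPM. The DLL1 difference was 2.58 larger on D45 than on D11, and 2.08 larger in thinned cells. That of JAG1 changed by -0.57 ± 0.19 (adjusted p = 0.0418, 26.3% passing), a call lost without D11 A, D11 B or D45 B (adjusted p = 0.0604, 0.35 and 0.0924), with all barcodes (0.0634), with doublets removed (0.051) and in thinned cells (0.592).

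**Figure D4:**
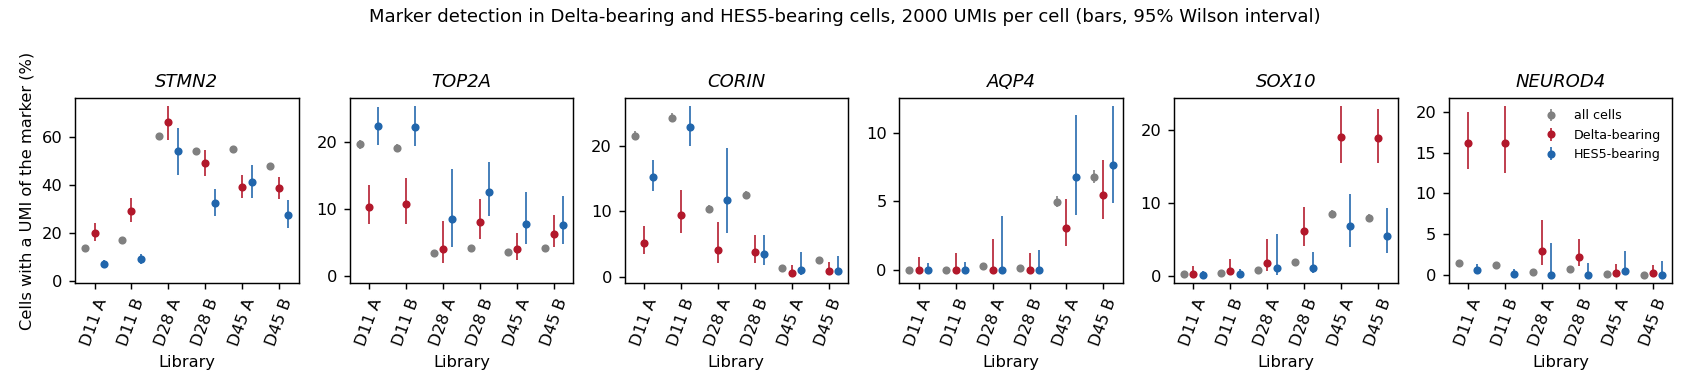
Share of cells with a UMI of each of 6 genes, in percent, per library, among all cells (grey), Delta-bearing cells (red) and HES5-bearing cells (blue), each cell thinned to 2000 UMIs; bars are 95% Wilson intervals and cover counting error only. On D11 NEUROD4 was found in 16.2% of Delta-bearing cells of both libraries, against 1.50% and 1.21% of all cells. On D45 SOX10 was found in 19.1% and 18.9% of Delta-bearing cells, against 8.47% and 7.98% of all cells.

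How often 2 of the genes met in 1 cell was compared with the number expected if they were independent within a library, at 2000 UMIs per cell. Of 21 pairs, 8 had a value in all 6 libraries. A pair had no value in a library without a cell holding both genes, and was then not tested. HES1 and DLL3 were such a pair, at -1.40 to -0.72 on the log2 scale in the libraries with a value. DLL1 and DLL3 met far more often than expected: in 75 cells against 5.93 expected in D11 A, 37 against 2.38 in D11 B, 8 against 0.927 and 20 against 2.45 on D28, and 7 against 1.27 and 9 against 2.11 on D45. The mean log2 ratio was 3.05, with a range of 2.09 to 3.96. HES1 and DLL1 met less often than expected: in 22 cells against 56.3, 31 against 51.7, 14 against 14.8, 17 against 28.4, 13 against 17.9 and 8 against 21.1, with a mean of -0.80. The other effector behaved otherwise. HES5 and DLL1 met more often than expected in 6 of 6 libraries, with a mean of 0.80, and HES5 and JAG1 likewise, with a mean of 1.14. These 4 pairs had the smallest p that the two-sided exact sign-flip permutation test allows for 6 libraries (p = 0.03125, adjusted p = 0.0625 over the 8 pairs), so that none passed 0.05 after adjustment. HES1 and HES5 had a mean of 0.41 (exact permutation p = 0.3125, adjusted p = 0.357), below 0 in both D11 libraries and D28 A and above 0 in the other 3. DLL1 and JAG1 (0.37), HES1 and JAG1 (0.25) and DLL3 and JAG1 (-0.09) were nearer to 0. Cells of different types in 1 library share such ratios, and their part was not tested beyond a split by STMN2. Among cells without STMN2 the mean was 3.46 for DLL1 with DLL3 and -0.91 for HES1 with DLL1, and among cells with STMN2 it was 2.02 and -0.71. HES1 with DLL1 ran from -1.59 to -0.15 over the libraries without STMN2. With STMN2 it ran from -1.68 to 0.54, above 0 in 1 library. DLL1 with DLL3 lay above 0 in 6 libraries in both, though the smallest expected count with STMN2 was 0.40 cells. The pairs of HES5 depended on the split. HES5 with DLL1 was at 0.89 without STMN2 and 0.24 with it, and HES5 with JAG1 at 1.15 and 0.61, both above 0 in 6 libraries without STMN2 and in 4 with it. HES1 with HES5 was at 0.014 without STMN2, and at 1.38 and above 0 in 6 of 6 libraries with it.

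**Figure D5:**
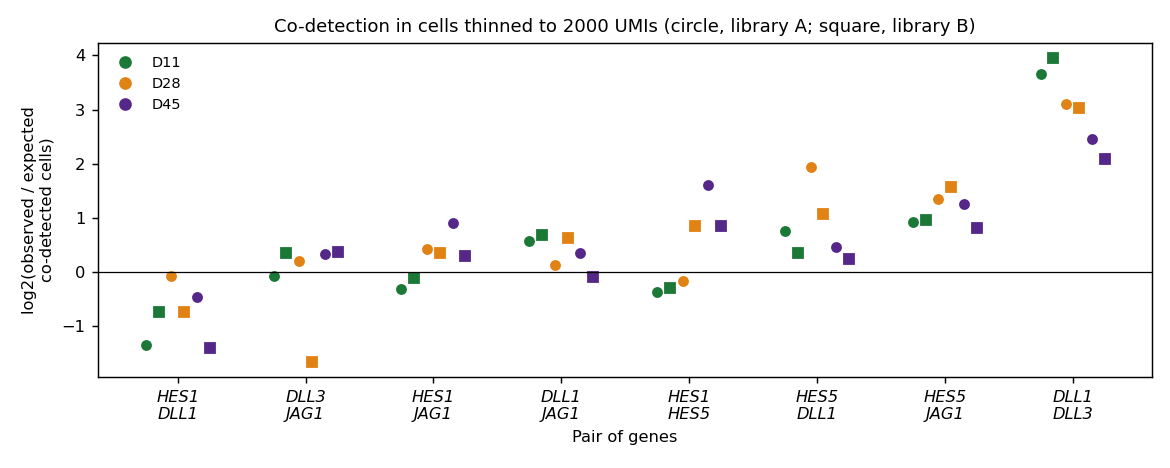
The log2 ratio of observed to expected cells holding both genes of a pair, for 8 pairs and 6 libraries (circles, library A; squares, library B), each cell thinned to 2000 UMIs. DLL1 with DLL3 lies between 2.09 and 3.96 in every library, HES5 with DLL1 and HES5 with JAG1 lie above 0 in every library, and HES1 with DLL1 lies below 0 in every library.

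The changes with day were also read among cells positive for 1 marker at a time. In STMN2-positive cells HES5 was at -2.20 on D28 and -1.89 on D45 against D11 (adjusted p = 0.00247 and 0.00218), JAG1 at -2.01 on both (adjusted p = 0.00169 and 0.000905), HES1 at -0.18 and -1.98 (adjusted p = 0.789 and 0.0106) and DLL3 at -1.50 and -3.28 (adjusted p = 0.038 and 0.00189), where 16.1% and 27.3% of all genes passed. In cells with at least 4 STMN2 UMIs of 2000 the HES5 values were -0.08 (adjusted p = 0.935) and -0.69 (adjusted p = 0.384) and those of DLL3 -0.97 and -1.17 (adjusted p = 0.204 and 0.114), so these falls did not pass in the cells richest in STMN2. Leaving out D11 A, D11 B or either D45 library ended the DLL3 call at D28 (adjusted p 0.0677 to 0.268), and leaving out D11 B or either D45 library ended the HES1 call at D45 (0.0618 to 0.0908).

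In CORIN-positive cells HES5 was at -2.54 and -2.17 (adjusted p = 0.00155 and 0.0019), JAG1 at -1.66 and -1.51 (adjusted p = 0.00504 and 0.00546) and HES1 at -0.03 and -1.59 (adjusted p = 0.944 and 0.00683), with 23.7% and 31.1% of all genes passing. Thus HES5 and JAG1 passed at both days and HES1 at D45 alone, as in whole organoids. COL1A1 differed between the days in this class, as given above, so the cells compared were not shown to be of 1 kind, and the part of this in the changes was not tested. DLL1 rose by 1.23 at D45 (adjusted p = 0.0109) and DLL3 was at -2.48 (adjusted p = 0.0164). The DLL1 call was lost without D11 A, D11 B or D45 B (adjusted p 0.0677 to 0.133) and in thinned cells (0.213), that of DLL3 without D11 A or either D45 library (0.0658 to 0.088) and with at least 2 CORIN UMIs (-1.53, adjusted p = 0.129), and that of JAG1 at D45 without D45 A (0.0512). In TOP2A-positive cells, which were likewise not shown to be of 1 kind on D11 and D45, JAG1 fell by 2.19 at D45 (adjusted p = 0.00158). Here 23.4% of genes passed. HES1 at -1.72 (adjusted p = 0.0255) and DLL3 at -1.99 (adjusted p = 0.0298) passed, but lost the call without any one of the D11 and D45 libraries (0.0773 to 0.176), and DLL3 also with at least 2 TOP2A UMIs (0.137). HES5 at -1.20 (adjusted p = 0.14) and DLL1 at 1.88 (adjusted p = 0.0652) did not pass, but both did without D28 A (adjusted p = 0.000159 and 6.09e-05) or D28 B (0.000206 and 8.84e-05), and DLL1 also with DESeq2 (0.00613), with no filter (0.0373) and in thinned cells (0.0164). In AQP4-positive cells, between D28 and D45, HES1 was at -2.23 (adjusted p = 0.0117) and DLL1 at 2.13 (adjusted p = 0.0483), with 9.03% of genes passing. As given above, these cells were not shown to be of 1 kind on D28 and D45, and the part of this was not tested. The DLL1 call was lost without D45 A or D45 B and with doublets removed (adjusted p = 0.0628). It was also lost with at least 2 AQP4 UMIs (1.22, adjusted p = 0.352) and in thinned cells (0.552), where that of HES1 was lost too (0.0547).

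Genes with the most similar pattern were sought over 27 sums, each a library and a class of cells positive for 1 marker only or for none of the 4. The points share libraries and the correlations are descriptive. Nearest to HES1 were FLRT3 (Pearson r = 0.94), YAP1 (0.94) and SAPCD1 (0.91), nearest to HES5 were PLCH1 (0.91), INTS13 (0.86) and UBE3D (0.86), and nearest to JAG1 were PRTG (0.90), RPS18 (0.90) and MMRN1 (0.90). Nearest to DLL1 were HIP1 (0.88), CDH10 (0.85) and AFF2 (0.83), and nearest to DLL3 were HDAC2 (0.84), EFNB2 (0.84) and PMCH (0.83). For the sparse proneural genes the best values were lower, 0.73 for NEUROG1 with BTBD17 and 0.75 for NEUROG2 with XRN2. Among the members themselves HES5 and JAG1 were at 0.77 and HES1 and DLL1 at -0.61.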

How the data were processed

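Single-cell RNA-seq was made with a 3' droplet kit from 6 libraries of organoids. Per the labels and the study's methods, the authors ran Cell Ranger on Sscrofa11.1 and deposited UMI counts per gene and cell, and they processed them in Seurat 4.3.0. The deposited counts were used unnormalized. Cells with 200 to 7000 genes and at most 10% of UMIs from 37 mitochondrial genes were kept. Barcodes that a doublet score called were kept in the main fits and removed in an alternative. Cells were thinned to 2000 UMIs for shares. Cells are not replicates, so counts were summed per library and class of cells and fitted with edgeR 4.0.16 (R 4.3.3; filterByExpr, TMM, quasi-likelihood test, Benjamini-Hochberg over all genes tested, threshold 0.05). The standard error is the log2 fold change divided by the root of F. DESeq2 1.42.0 was an alternative. Fits by day and within a marker held day only. They spanned all 3 days, save for AQP4-positive cells, which were compared on D28 and D45 alone. Fits between classes had the library as a block and at least 20 cells per sum. Permutation tests, Wilson intervals (95%) and joins used python 3.11.15, scipy 1.17.1 and pandas 2.3.3. Scripts were tested on simulated data. The submitters call the 2 libraries of a day biological duplicates, and p-values measure the spread between them. The genes and lists were chosen with earlier results of these data known. The text gives the members in full and, of each pathway list, up to 2 of the largest rises and falls past the threshold, with further examples chosen after their values were seen. Likeness used genes of at least 10 CPM on log2(CPM + 1). NOTCH1, BHLHE22, INSM1, JAG2, MKI67, NRARP, S100B and SOX2 were not matched by symbol and were not analysed here. In all, 844 gene IDs without a symbol were named through the reference annotation.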

Additional observations from a re-analysis of the deposited data

Results flagged for a closer look

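Differences between marker classes that themselves changed with day were listed wherever the test of the change passed (edgeR's quasi-likelihood test, adjusted p under 0.05), giving 11 values on the log2 scale. For the STMN2 split, the change from D11 was -0.82 for DLL3 at D28 and -0.54 for DLL1 at D45. For TOP2A, the change from D11 was 0.63 for HES1 at D28, 0.64 for HES1 at D45 and 1.50 for DLL1 at D45. For CORIN, it was 0.60 for HES1 and 0.62 for JAG1 at D28, and 0.83 for JAG1 at D45. For SOX10, chosen after it was seen in DLL1-bearing cells, which leaves its DLL1 value a description, it was 2.58 for DLL1 and -0.57 for JAG1 at D45. For Delta-bearing against HES5-bearing cells, it was -1.17 for HES1 at D45. Their parts in any change of cell make-up were not tested. DLL1 by SOX10 lost the call in thinned cells (2.08, adjusted p = 0.182), and the other 10 lost the call without at least 1 library of the days compared. Outliers within a group were not sought with 2 libraries per day.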

How the results depend on the processing

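Counts of genes called moved most. Between D28 and D45 in whole organoids 2086 genes passed, against 4353 with DESeq2 and 628 with the replicate letter as a block. The block gave 3314 against 5131 for D28 and D11, 2019 against 3437 within STMN2-positive and 2141 against 3895 within TOP2A-positive cells. Deviations of libraries with the same letter correlated at -0.326, 0.0493 and -0.194 over 22192 genes, so the letters were not taken to pair the libraries. For members the block ended the calls of HES1 and DLL3 at D45 against D28 (adjusted p = 0.0586 and 0.0641), DLL3 at D28 within STMN2-positive cells (0.0573) and HES1 and DLL3 within TOP2A-positive cells (0.06 and 0.0653). Delta-bearing against HES5-bearing cells gave 5265 genes over days, 4251 on D11, 1040 on D28, 4028 on D45 and 3640 for the change to D45. In thinned cells these were 1431, 1233, 329, 659 and 401, and with DESeq2 2700 on D11, 2354 on D45 and 2196 for the change. With HES1 or HES5 against DLL1, DLL3 or JAG1 they were 9171 over days, 7231 on D28 and 6577 on D45, and on D28 they were 1632 with no filter on low counts and 1765 with at least 2 UMIs. At least 2 UMIs gave 3548 against 2325 and 5838 against 3393 genes for the STMN2 changes at D28 and D45, and 386 against 1370 within AQP4-positive cells, where no filter gave 3505. Thinned cells gave 5429 against 9425 genes for TOP2A and 1156 for its change to D45, 4533 against 9960 for CORIN, 1585 and 780 for its changes to D28 and D45, 535 against 6506 for AQP4, and 5066 and 1195 for SOX10. All barcodes gave 1952 against 2994 genes for the CORIN change to D28. Within markers, thinned cells gave 1984 and 3801 (STMN2, D28 and D45), 1738 (TOP2A), 2376 and 2521 (CORIN) and 406 (AQP4), and at least 4 STMN2 UMIs of 2000 gave 1622 and 2762. Leaving out 1 library gave 1112 to 10545, 2804 to 12286 and 0 to 10003 genes for the pairs of days in whole organoids; 3023 to 6168, 1152 to 5965, 323 to 2232, 1404 to 5309 and 1074 to 5013 for the Delta comparisons; 8307 to 10845, 799 to 3086 and 1086 to 5203 for STMN2; 6838 to 10239, 179 to 3987 and 202 to 5426 for TOP2A; 7349 to 9601, 667 to 3532 and 590 to 2584 for CORIN; 4328 to 6506 for AQP4; 5550 to 10931 and 3073 to 7224 for SOX10; and, within markers, 615 to 8509 and 1548 to 10256 (STMN2), 1209 to 8177 and 2446 to 8737 (CORIN), 533 to 8345 (TOP2A) and 564 to 5698 (AQP4). The 0 came without D45 A. A lone library of a day was assumed to vary like the others. Reversals among members where the main or the alternative value passed were as follows. DLL3 by STMN2 reversed (-0.089 thinned, -0.24 with at least 4 of 2000 UMIs), as did its change to D45 with at least 4 UMIs (1.55, adjusted p = 0.0392). So did the change of HES5 by CORIN to D28 (-0.32, with -1.42 without D28 A and 0.87 without D28 B). The pair DLL3 and JAG1 changed direction without D28 B (0.23). Leaving out a library gave mean log2 ratios of -0.18 to 0.23 for that pair and, for the other pairs and the 4 marker shares, values of the same sign as the reported ones. Under settings other than leaving out a library, 937 values of members stayed on their side of the threshold, 33 gained and 32 lost a call, and 3 reversed. On leaving out a library 759 stayed, 45 gained and 81 lost a call, and 1 reversed. For these values a reversal was counted only where the main or the alternative value passed. A change of direction between values that did not pass was counted as staying. The counts include NEUROG1, whose test is not read. Except where a setting itself removes cells, genes or libraries, the cause was not tested. D28 A had the fewest UMIs in all (106805311) and D45 A the lowest median per cell (2300.5).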
